A study of Mus musculus with 75 samples.

Results

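Gastrocnemius muscle of mice that bore a C26 tumour and were given cisplatin was compared with muscle of mice that had no tumour and no drug. The 29 libraries were chosen by title out of 75 labelled samples (74 have a column of values): 14 from tumour-bearing mice given cisplatin (6 female, 8 male) and 15 from mice injected with phosphate-buffered saline (PBS) in place of tumour cells and with saline vehicle in place of drug (7 female, 8 male). All mice were BALB/c. Those with tumours had received C26 cells on both flanks, the gastrocnemius was collected at day 25, and cisplatin was given from day 12 at 75% of the maximum tolerated dose, in 2 cycles of 2 injections a week. A further 15 libraries from tumour-bearing mice given saline (7 female, 8 male) show, where they are cited, the level with the tumour and no drug. No group among the 29 libraries received cisplatin without a tumour, so effects of tumour and drug cannot be told apart in this comparison. All 29 carry 1 batch value in the labels. These say nothing of cages or litters and do not state whether each library is a separate animal. A p-value therefore reflects only how much these samples vary.

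C26 is a mouse colon carcinoma line used as a standard model of cancer cachexia, the wasting of muscle and fat that accompanies a tumour. Its tumours release interleukin-6 and related cytokines. These act through gp130 receptors and the kinase JAK on the transcription factor STAT3, and muscle responds with acute-phase transcripts otherwise typical of liver. Glucocorticoids and FoxO transcription factors, the latter held in check by insulin and IGF signalling, induce the ubiquitin ligases atrogin-1 and MuRF1, which mark muscle proteins for the proteasome. Cisplatin crosslinks DNA, which cells mend by excision and crosslink repair, activates p53 in many cells, and binds to thiols such as those of metallothioneins. The question here was what still differs from tumour-free muscle at the end of treatment.

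The 29 libraries held 11.7 to 34.2 M estimated counts each (M for mega, median 24.3 M), recovered from the deposited log2 values. Markers of muscle fibres took 20.2 to 29.3% of expression in the cisplatin libraries and 19.1 to 29.4% in the PBS libraries, so both are muscle. Of 15 epithelial and colon carcinoma markers 6 were measured, and their sum did not exceed 0.00275% of expression in any of these libraries. Transcripts of mitochondrial DNA took 1.66 to 17.0% of a library. The slope of a library's expression on the GC content of transcripts ran from -0.25 to 0.55 (in log2 units, for each standard deviation of GC), and it exceeded 0.1 in 2 of 14 cisplatin and 4 of 15 PBS libraries. Male cisplatin replicate 4 had the highest slope together with the lowest mitochondrial share.

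Of 13856 genes, 315 (2.27%) were higher and 390 (2.81%) lower in cisplatin than in PBS muscle, 705 (5.09%) in all, at an adjusted p under 0.05 (limma with sex as a blocking factor, Benjamini-Hochberg adjustment over all genes). A gene that passed is said below to have risen or fallen. Values are log2 units, differences are cisplatin minus PBS followed by their limma standard error, and every adjusted p-value of a gene is from limma. Most changes were small: the median rise was 0.54, the median fall -0.49, and 47 rises and 38 falls reached 2-fold. All 705 genes had the same sign in females and males, which calling them on the pooled test favours. The median over all genes was -0.01. Leaving out single libraries moved the count between 546 (without male PBS replicate 2) and 898 (without male cisplatin replicate 4). Fitting all groups of the series together gave 438 calls, and of 132 called genes examined singly 40 lost their call in that fit. Without the libraries of GC slope above 0.1 (the high-slope libraries), 24 of the 132 did, and with libraries weighted by quality 12. The GC slope or the mitochondrial share as a covariate gave 1862 and 1742 calls over all genes. Of these, 855 and 806 were rises and 1007 and 936 falls. List counts in those settings stand against these totals, not against the 315 and 390 of the main fit. Where one of these settings ended the pooled call of a gene in the text, it stands beside the gene.

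**Figure D1:**
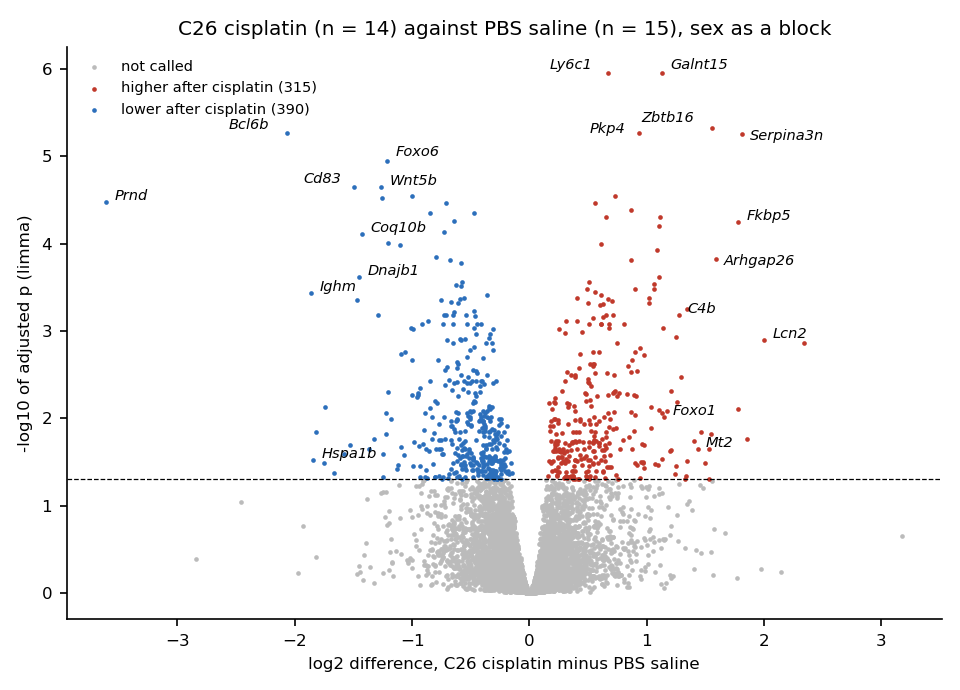
Each point is 1 of 13856 genes, with the log2 difference between cisplatin and PBS muscle on the x axis (sexes pooled) and −log10 of the adjusted limma p-value on the y axis. The 315 genes that rose are red and the 390 that fell are blue, with some of the genes named in the text labelled, and the dashed line marks an adjusted p of 0.05.

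Few genes separated the groups without overlap. In 5 genes (0.0361% of all) every one of the 14 cisplatin libraries lay beyond all 15 PBS libraries, 4 of them higher (0.0289%) and 1 lower (0.00722%). Within both sexes 9 genes (0.065%) did so in 1 direction, 6 higher (0.0433%) and 3 lower (0.0217%). Galnt15 (ENSMUSG00000021903), a Golgi enzyme that starts O-glycans on proteins, ran from 4.39 to 5.39 (median 4.82) in the cisplatin libraries and from 3.03 to 4.39 (median 3.76) in the PBS libraries, a rise of 1.13 ± 0.12 (adjusted p = 1.11e-06). Ly6c1, a surface protein of endothelial cells and monocytes, ran from 5.79 to 6.43 (median 6.19) against 5.14 to 5.74 (median 5.48), a rise of 0.67 ± 0.07 (adjusted p = 1.11e-06). The gap between the groups was narrow in both genes, and the C26 saline libraries had a median of 5.10 for Galnt15 and 6.64 for Ly6c1. Pkp4, an armadillo protein of cell junctions, also separated the groups and rose by 0.94 ± 0.11 (adjusted p = 5.42e-06). The lower one was Itgb6, the beta-6 integrin subunit, which ran from 1.41 to 4.12 (median 3.47) with cisplatin against 4.17 to 4.86 (median 4.56) with PBS, a difference of -1.21 ± 0.18 (adjusted p = 9.73e-05).

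Acute-phase genes and their receptors were the group with the most rises. Of 38 measured IL-6, STAT3 and acute-phase genes, 11 rose (28.9%, against 2.27% of all genes) and 1 fell, with a median difference of 0.41 against -0.01 over all genes. Serpina3n (ENSMUSG00000021091) encodes a secreted inhibitor of serine proteases. It ran from 2.52 to 4.74 (median 3.29) in the cisplatin libraries and from 0.52 to 2.57 (median 1.56) in the PBS libraries. The ranges overlapped by a narrow margin, and within each sex they did not overlap. It rose by 1.81 ± 0.22 (adjusted p = 5.5e-06), which is 3.51-fold. Lcn2 (ENSMUSG00000026822), a siderophore-binding protein, ran from -0.16 to 4.08 (median 1.41) against -1.93 to 2.28 (median -0.50), overlapped widely, and rose by 2.00 ± 0.38 (adjusted p = 0.00127).

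Other genes of the list rose by less. Stat3 itself ran from 6.05 to 7.06 (median 6.32) against 5.79 to 6.41 (median 5.93) and rose by 0.47 ± 0.10 (adjusted p = 0.00515). Upstream receptors rose as well: Osmr, the oncostatin M receptor, by 0.87 ± 0.13 (adjusted p = 0.000153), and Il6ra, the binding subunit of the interleukin-6 receptor, by 0.86 ± 0.20 (adjusted p = 0.00843). Complement C4b rose by 1.28 ± 0.22, C3 by 0.71 ± 0.17, the glycoprotein Lrg1 by 0.72 ± 0.15, the lipopolysaccharide-binding protein Lbp by 0.69 ± 0.16, and the metalloreductase Steap4 by 0.55 ± 0.11. Socs3, the feedback inhibitor that STAT3 induces, was not called, at 0.39 ± 0.30 (adjusted p = 0.588). Its cisplatin libraries ran from 0.73 to 3.64 and its PBS libraries from 0.61 to 3.60, so they overlapped almost fully. The interleukin-1 receptor Il1r1, which rose by 0.42, and Socs2, an inhibitor of growth hormone signalling that fell by 0.81, were near the threshold, with adjusted p-values up to 0.0856 and 0.0849 when single libraries were left out. Serpina3 genes have close copies, so the split of reads between them is uncertain. The list's count of rises stayed at 10 or 11 with any single library left out, and was 7 with all groups of the series fitted together and 8 with quality weights. Stat3 (0.0584), Lbp (0.082), C3 (0.0702) and Il1r1 (0.0843) lost their calls in the fit of all groups (adjusted p in parentheses), and Lbp (0.0616), Il1r1 (0.15) and Socs2 (0.0641) with high-slope libraries left out. Lbp (0.0552), C3 (0.056) and Il1r1 (0.0863) lost them with quality weights, and Socs2 with the replicate block (0.101).

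For these genes the cisplatin libraries lay below those of untreated tumour-bearing mice. Against C26 saline, a comparison that uses the same 14 cisplatin libraries, 0 of the 38 genes were higher and 25 were lower with cisplatin (median -1.13; 6.47% and 8.99% of all genes were higher and lower). Serpina3n had a median of 6.23 in C26 saline and cisplatin lay below it, at -2.60 ± 0.25 (adjusted p = 1.45e-07). For Lcn2 the C26 saline median was 5.56 and the difference -3.41 ± 0.46 (adjusted p = 1.46e-05), and for Stat3 they were 7.68 and -1.11 ± 0.14 (adjusted p = 8.15e-06). In median level all 3 genes stood in the order PBS, cisplatin, C26 saline. Socs3 differed from C26 saline by -2.48 ± 0.45 (adjusted p = 0.000481) and its difference from PBS did not pass.

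**Figure D2:**
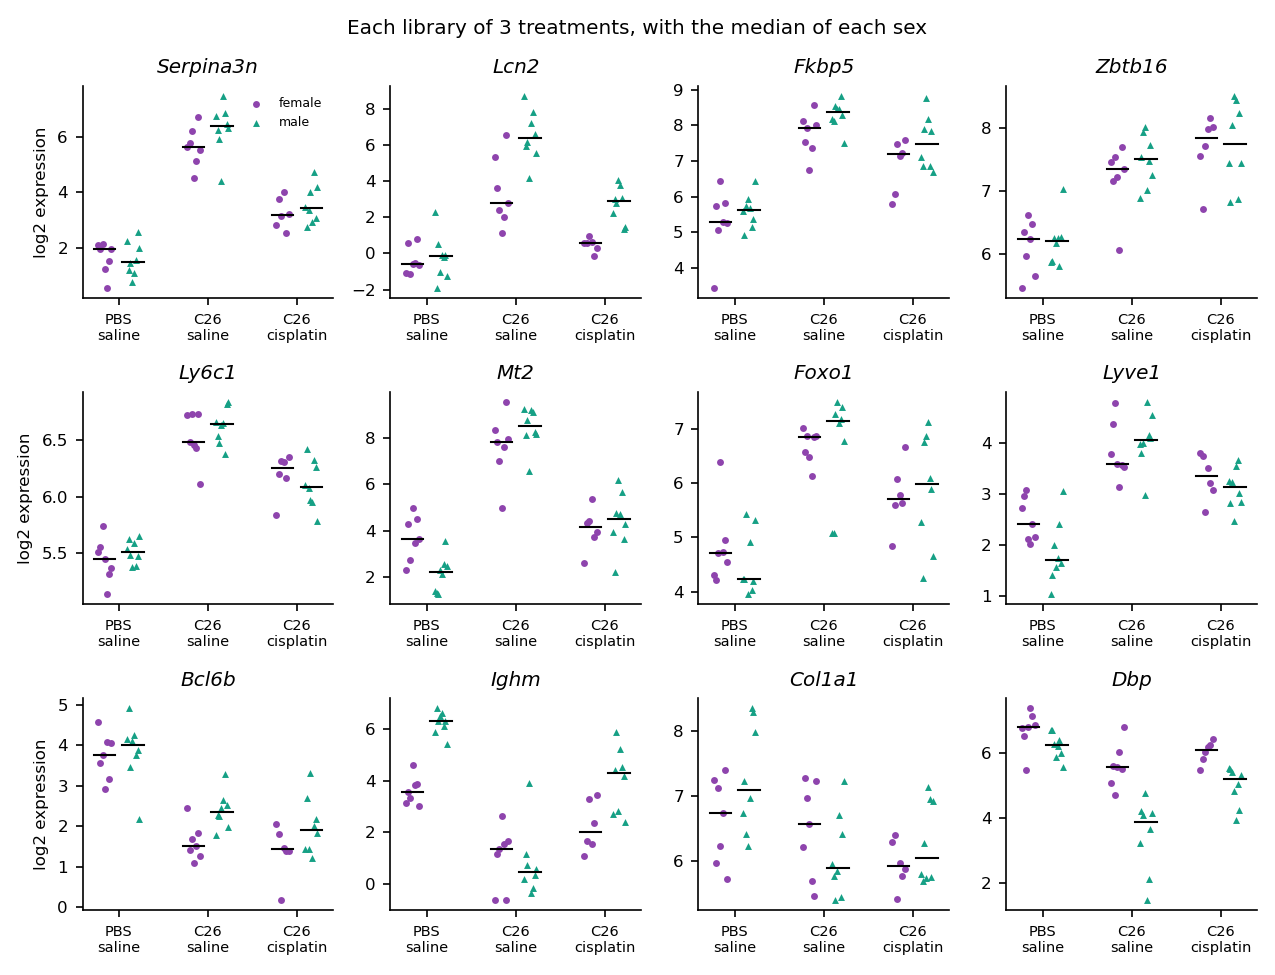
Log2 expression of 12 genes, 1 panel each, in the PBS, C26 cisplatin and C26 saline libraries, with females and males marked separately and 1 point per library. Serpina3n and Lcn2 stand in the order PBS, cisplatin, C26 saline, while Bcl6b is low with and without cisplatin.

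A smaller share rose among genes that respond to glucocorticoids and FoxO factors. Of 32 measured, 6 rose (18.8%) and 0 fell, with a median of 0.18. Fkbp5 (ENSMUSG00000024222), a glucocorticoid-induced cochaperone of Hsp90, ran from 5.80 to 8.77 (median 7.19) with cisplatin and from 3.42 to 6.45 (median 5.59) with PBS, and rose by 1.78 ± 0.25 (adjusted p = 5.58e-05). Zbtb16 (ENSMUSG00000066687), a zinc-finger factor known as PLZF that glucocorticoids induce, ran from 6.71 to 8.52 (median 7.85) against 5.45 to 7.04 (median 6.23), and rose by 1.56 ± 0.18 (adjusted p = 4.73e-06). For both genes the cisplatin median lay above every PBS library, and the lowest cisplatin libraries lay within the PBS range. Foxo1 ran from 4.26 to 7.12 (median 5.84) against 3.95 to 6.39 (median 4.55) and rose by 1.15 ± 0.27 (adjusted p = 0.00956). Foxo3 rose by 0.66 ± 0.11 (adjusted p = 0.000649) and Lpin1, a phosphatidate phosphatase of lipid synthesis, by 0.73 ± 0.10 (adjusted p = 2.86e-05). The sixth gene was the metallothionein Mt2, described below. Pdk4, the kinase that turns off pyruvate dehydrogenase, was not called (1.06 ± 0.35, adjusted p = 0.0773).

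In the C26 saline libraries Zbtb16 ran from 6.07 to 8.03 (median 7.46), and cisplatin differed from them by 0.35 ± 0.19 (adjusted p = 0.224), which is not past the threshold. Fkbp5 and Foxo1 were lower with cisplatin than in C26 saline, at -0.82 ± 0.22 (adjusted p = 0.0098) and -0.86 ± 0.28 (adjusted p = 0.0363). Of the 32 genes 1 was higher and 10 were lower than in C26 saline.

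The muscle ubiquitin ligases did not pass with the sexes pooled. Fbxo32 (ENSMUSG00000022358), which encodes atrogin-1, ran from 6.69 to 9.92 (median 8.38) with cisplatin and from 7.15 to 8.41 (median 7.94) with PBS, a difference of 0.41 ± 0.21 (adjusted p = 0.31). Trim63 (ENSMUSG00000028834), which encodes MuRF1, ran from 6.89 to 11.21 (median 8.00) against 7.43 to 8.43 (median 7.89), a difference of 0.41 ± 0.29 (adjusted p = 0.529). In both genes the cisplatin libraries spread beyond the PBS libraries on both sides. Their C26 saline medians were 9.93 and 9.92, and cisplatin lay below them, with differences of -1.28 ± 0.28 (adjusted p = 0.0021) and -1.41 ± 0.32 (adjusted p = 0.00301). Of 26 measured ubiquitin ligases and atrophy genes 1 rose, Cblb, a ligase that acts on insulin receptor substrates (0.54 ± 0.14, adjusted p = 0.0185), and 0 fell. The call of Cblb was lost with all groups fitted together (adjusted p = 0.0646) and with high-slope libraries left out (adjusted p = 0.0629), and 3 of the 26 rose with the GC slope as a covariate. In that last setting 855 of all 13856 genes rose. Of 33 proteasome subunits limma called 0 (median 0.02, with 1 at an unadjusted p under 0.05), and of 39 autophagy and lysosome genes 1 fell, Wipi1, which acts in autophagosome formation (not called with all groups together, adjusted p = 0.0599). Against C26 saline 16 of the proteasome subunits and 16 of the autophagy and lysosome genes were lower with cisplatin.

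DNA damage genes gave counts near the background. Of 39 measured p53 targets and damage response genes, 2 rose (5.13%) and 1 fell (2.56%). The risers were the death receptor Fas (0.55 ± 0.14, adjusted p = 0.0178) and the cell cycle inhibitor Cdkn1a (1.07 ± 0.30, adjusted p = 0.033), and the checkpoint kinase Chek2 fell (-0.66 ± 0.16, adjusted p = 0.0122). Cdkn1a ran from 4.09 to 7.96 (median 5.77) with cisplatin and from 3.56 to 5.97 (median 4.44) with PBS, an overlap over most of the PBS range. Its call was lost without any one of 10 libraries, female PBS 1, male PBS 1, 2, 3, 5 and 6 or male cisplatin 3, 5, 6 and 7 (adjusted p up to 0.0593), and with all groups fitted together (adjusted p = 0.0698). The call of Chek2 was lost in that fit as well (adjusted p = 0.334), and over all settings 1 to 4 of the 39 genes rose and 0 to 4 fell. Mdm2, the p53 target that degrades p53, lay at -0.04 ± 0.10 (adjusted p = 0.915), the p53-induced receptor Eda2r at -0.13 ± 0.21 (adjusted p = 0.839), and the stress cytokine Gdf15 at 1.36 ± 0.46 (adjusted p = 0.0878). Of 45 excision, crosslink and mismatch repair genes 1 rose, the damage-binding factor Xpa (0.39 ± 0.08, adjusted p = 0.00322), and 1 fell, Fancc of the Fanconi core complex (-0.50 ± 0.12, adjusted p = 0.0122). Xpa was not called with all groups together (adjusted p = 0.0631), and the mean log2 values of Chek2 and Fancc were below 1. The endonuclease subunit Ercc1 lay at 0.13 ± 0.17 (adjusted p = 0.798). Of 28 platinum uptake, export and thiol defence genes 1 rose, Mt2 (5 rose with the GC slope or the mitochondrial share as a covariate, and 0 with all groups together or quality weights), and the copper transporter Slc31a1, known to carry platinum, lay at -0.12 ± 0.10 (adjusted p = 0.627). With those covariates 855 and 806 of all 13856 genes rose. Of 26 antioxidant NRF2 genes limma called 0, with 6 at an unadjusted p under 0.05.

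Metallothioneins, small cysteine-rich proteins that bind zinc and copper, are induced by metals through the factor MTF1 and by glucocorticoids and STAT3. Mt2 (ENSMUSG00000031762) ran from 2.25 to 6.18 (median 4.33) with cisplatin and from 1.27 to 5.00 (median 2.57) with PBS, and rose by 1.43 ± 0.38 (adjusted p = 0.0225). Mt1 ran from 3.61 to 7.33 (median 4.94) against 3.41 to 5.87 (median 4.25) and did not pass, at 0.80 ± 0.28 (adjusted p = 0.103). Both genes overlapped between the groups, and their near-identical sequences leave the split of reads between them uncertain. The C26 saline libraries lay higher, with medians of 8.18 and 8.25, from which cisplatin differed by -3.79 ± 0.38 (adjusted p = 2.26e-07) and -3.20 ± 0.35 (adjusted p = 8.05e-07). The call of Mt2 was lost with libraries weighted by quality (adjusted p = 0.0523), without the libraries of GC slope above 0.1 (adjusted p = 0.0776) and with all groups fitted together (adjusted p = 0.0842). Metallothionein promoters are known for repeated metal response elements, and those of both genes are shown for that reason. Each window is 250 bases before to 50 after the start, 5′ to 3′ on the plus strand, from RefSeq on GRCm38.p6, with the letters TGCNCNC (N for any base, either strand) in capitals. That of Mt2 is chr8:94172368-94172667 and that of Mt1 chr8:94178839-94179138.
Mt2: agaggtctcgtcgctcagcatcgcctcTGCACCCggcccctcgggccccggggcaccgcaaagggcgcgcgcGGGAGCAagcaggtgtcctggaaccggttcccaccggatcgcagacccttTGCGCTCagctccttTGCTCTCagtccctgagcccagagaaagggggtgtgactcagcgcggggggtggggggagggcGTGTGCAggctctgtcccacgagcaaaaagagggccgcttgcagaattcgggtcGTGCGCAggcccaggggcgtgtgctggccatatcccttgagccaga
Mt1: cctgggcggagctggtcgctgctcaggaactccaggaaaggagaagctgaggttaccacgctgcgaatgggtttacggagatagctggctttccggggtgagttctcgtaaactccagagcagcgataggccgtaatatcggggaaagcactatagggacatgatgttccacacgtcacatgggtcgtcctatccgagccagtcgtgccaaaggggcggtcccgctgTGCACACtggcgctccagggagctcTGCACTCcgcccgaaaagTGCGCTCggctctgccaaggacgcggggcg
Mt2 has 6 matches, a number reached by 74 (0.225%) of 32851 promoters in the RefSeq table, and Mt1 has 3, reached by 7.10%. At least 1 match is in 51.0% of all promoters. A match is a description of the letters and not a shown site of binding.

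Promoters of the acute-phase genes were searched in the same way for the STAT letters TTCNNNGAA, which 8.30% of all promoters hold. A listed gene counted if any of its promoters matched, and counted so, 9.55% of all genes hold these letters. Of the 11 genes that rose, 9 had a promoter in the table and 1 held a match, Steap4, against 5 of 20 of those not called. Letters of a C/EBP site, TTGCNNAA, were in 4 of the 9 (C3, Il1r1, Lcn2 and Steap4), in 4 of the 20 and in 10.8% of all promoters (12.2% of all genes). Steap4, whose window is chr5:7960222-7960521 on the plus strand of GRCm38.p6 (RefSeq), is shown with its STAT letters in capitals.
Steap4: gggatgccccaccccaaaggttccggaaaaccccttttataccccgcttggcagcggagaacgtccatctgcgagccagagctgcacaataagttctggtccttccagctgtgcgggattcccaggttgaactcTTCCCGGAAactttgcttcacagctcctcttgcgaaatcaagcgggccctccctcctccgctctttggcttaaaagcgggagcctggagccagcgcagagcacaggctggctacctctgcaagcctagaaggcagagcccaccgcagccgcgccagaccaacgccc
The FoxO letters TGTTTAC and the palindromic glucocorticoid response element were in 0 of the 5 risen FoxO and glucocorticoid genes with a promoter (3.65% and 0.00913% of all promoters, 4.05% and 0.0111% of all genes).

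Of 19 measured macrophage markers 4 rose (21.1%) and 0 fell, all 19 lay above 0, and the median was 0.45. Lyve1, a hyaluronan receptor of resident macrophages and lymphatic vessels, ran from 2.46 to 3.80 (median 3.22) with cisplatin and from 1.03 to 3.08 (median 2.13) with PBS and rose by 1.06 ± 0.17 (adjusted p = 0.000334). The coagulation factor subunit F13a1 rose by 0.64 ± 0.17 (adjusted p = 0.0203) and the Fc receptor Fcgr3 by 0.52 ± 0.12 (adjusted p = 0.00712), and the lysozyme Lyz2 was near the threshold (0.31 ± 0.09, adjusted p = 0.0458, up to 0.0812 when single libraries were left out). The count of 4 was 3 to 6 with single libraries left out, 2 with all groups fitted together, and 10 and 11 with the GC slope and the mitochondrial share as a covariate. In the covariate settings 855 and 806 of all 13856 genes rose. F13a1 and Lyz2 lost their calls in the fit of all groups (adjusted p = 0.11 and 0.163), F13a1 with quality weights (adjusted p = 0.0606), and Lyz2 with quantile normalization, the replicate block and the libraries of high slope left out (adjusted p = 0.0625, 0.0898 and 0.106). Summed over the list, macrophage markers took 0.0116 to 0.0253% of expression (median 0.0143%) with cisplatin, 0.00848 to 0.0190% (median 0.0113%) with PBS and 0.0106 to 0.0393% (median 0.0237%) in C26 saline, so the groups overlapped. In whole muscle, more cells of a type and more RNA per cell cannot be told apart. Of 8 neutrophil markers 1 rose, the collagenase Mmp8, which was listed at 0 in 1 of 14 cisplatin and 5 of 15 PBS libraries, and all 8 lay above 0. Against C26 saline 8 of 8 neutrophil and 12 of 19 macrophage markers were lower with cisplatin. The macrophage chemokines Ccl6 and Ccl9 rose by 1.11 ± 0.16 (adjusted p = 4.93e-05) and 1.02 ± 0.17 (adjusted p = 0.000473).

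Some genes of activated or venular endothelium rose. Ackr1, a chemokine receptor of venules, ran from 0.99 to 2.68 (median 2.10) with cisplatin against 0.04 to 1.73 (median 1.01) with PBS and rose by 1.09 ± 0.16 (adjusted p = 0.000117). The adhesion molecules Selp (P-selectin) and Icam1, which bind leukocytes, rose by 1.03 ± 0.25 (adjusted p = 0.0128) and 0.67 ± 0.16 (adjusted p = 0.00869). With the chemokine Ccl9 these were the 3 risers of 21 NF-kB and inflammation genes (14.3%), and Nos2, the inducible nitric oxide synthase, fell by 0.72 (adjusted p = 0.0173). Of 17 endothelial markers only Ackr1 and Pecam1 (0.23 ± 0.06, adjusted p = 0.0152) rose and 0 fell, and the list's sum took 0.0773 to 0.149% of expression with cisplatin and 0.0773 to 0.118% with PBS. Pecam1 was not called with all groups together (adjusted p = 0.0981) or with quantile normalization (adjusted p = 0.0635), nor Nos2 with high-slope libraries left out (adjusted p = 0.0573). With the GC slope as a covariate 7 of the 17 markers and 6 of the 21 inflammation genes rose, beside 855 of all 13856 genes. Of 12 pericyte and smooth muscle markers the growth factor receptor Pdgfrb rose (0.39 ± 0.09, adjusted p = 0.0082), and 5 of the 12 rose with that covariate.

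Single markers of B cells and mast cells fell. Ighm (ENSMUSG00000076617), the heavy chain of immunoglobulin M, ran from 1.07 to 5.88 (median 3.06) with cisplatin and from 3.04 to 6.84 (median 5.42) with PBS and fell by 1.86 ± 0.31 on this scale (adjusted p = 0.000367). In PBS muscle the 8 male libraries, at 5.42 to 6.84, lay above the 7 female ones, at 3.04 to 4.59. In C26 saline it was lower still, with a median of 0.74, and cisplatin lay above that by 2.33 ± 0.45 (adjusted p = 0.000828). All 4 measured B and plasma cell markers lay below 0 (median -0.75), and Ighm was the 1 that passed. Kit, the stem cell factor receptor of mast cells, was the 1 of 6 mast cell markers that fell (-1.11 ± 0.17, adjusted p = 0.000104), and all 6 lay below 0. The mean log2 value of Kit was below 1. Of 8 genes of MHC class II antigen presentation limma called 0, with 1 at an unadjusted p under 0.05. Of 18 listed T and NK cell markers 0 were measured.

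Among falls outside these lists was Bcl6b (ENSMUSG00000000317), a transcriptional repressor related to Bcl6. It ran from 0.17 to 3.32 (median 1.64) with cisplatin and from 2.17 to 4.93 (median 3.89) with PBS, with a difference of -2.06 ± 0.24 (adjusted p = 5.42e-06). The ranges overlapped, and 11 of 14 cisplatin libraries lay below every PBS library of their sex. The C26 saline libraries lay close to cisplatin, with a median of 1.99 and a difference of -0.32 ± 0.20 (adjusted p = 0.306) that did not pass. Foxo6, a FoxO factor, was lower than in PBS, at -1.21 ± 0.15 (adjusted p = 1.12e-05), and higher than in C26 saline, at 1.26 ± 0.25 (adjusted p = 0.00101). The maturation marker Cd83 lay at -1.50 ± 0.20 (adjusted p = 2.27e-05), the Notch ligand Dll1 at -0.73 ± 0.13 (adjusted p = 0.000649), the Wnt ligand Wnt5b at -1.26 ± 0.16 (adjusted p = 2.27e-05) and the urocortin receptor Crhr2 at -0.56 ± 0.09 (adjusted p = 0.000414), all lower. Prnd, which encodes a prion-like protein, fell the most among named genes, but it was listed at 0 in 8 of 14 cisplatin, 0 of 15 PBS and 14 of 15 C26 saline libraries, so its fitted difference depends on the value given to 0.

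**Figure D3:**
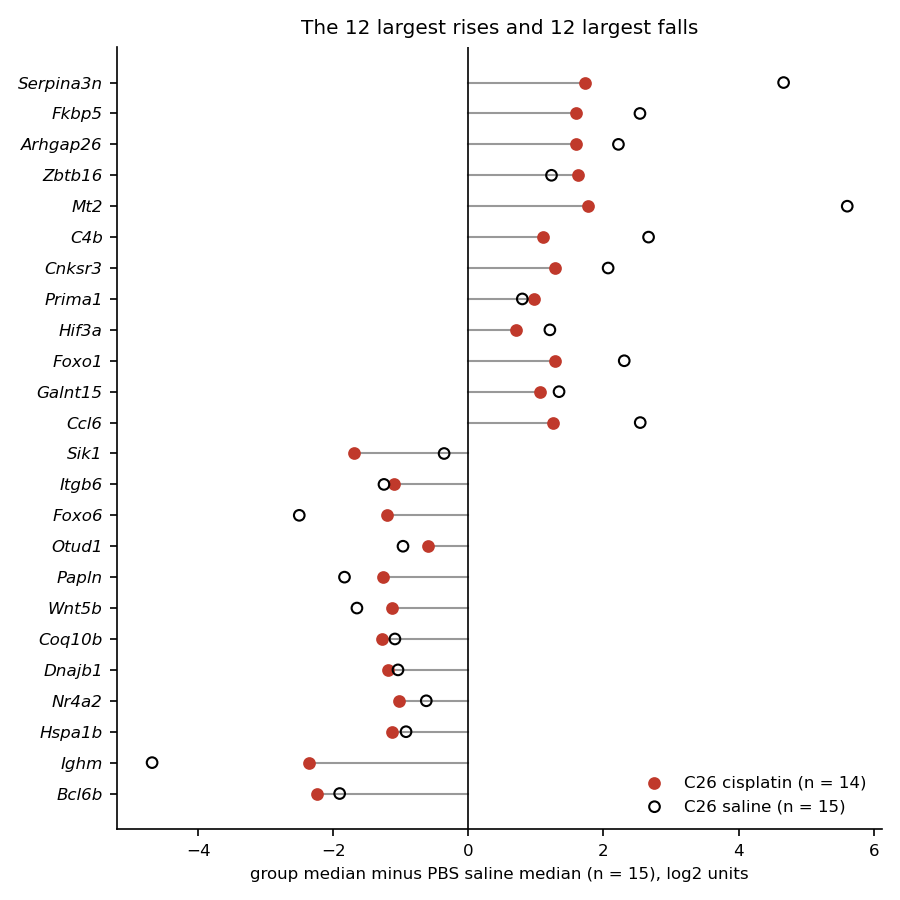
The 12 genes that rose most and the 12 that fell most, leaving out those below a mean log2 value of 1, with the median of each treatment relative to the PBS median on the x axis (log2). Filled points are the 14 cisplatin libraries and open points the 15 C26 saline libraries, and several acute-phase genes have open points far beyond the filled ones.

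Falls were most numerous among collagens and other matrix genes. Of 41 measured, 8 fell (19.5%, against 2.81% of all genes) and 1 rose, with a median of -0.22. Col1a1 (ENSMUSG00000001506), a chain of fibrillar type I collagen, ran from 5.41 to 7.14 (median 5.91) with cisplatin and from 5.72 to 8.36 (median 6.97) with PBS and fell by 0.85 ± 0.23 on this scale (adjusted p = 0.0235). Col15a1, a collagen of basement membranes, ran from 4.12 to 4.97 (median 4.47) against 4.69 to 5.98 (median 5.48), at -0.84 ± 0.12 (adjusted p = 4.45e-05). The overlap was wide for Col1a1 and small for Col15a1. Col3a1 lay at -0.64 ± 0.16 (adjusted p = 0.0143), Col6a1 at -0.56 ± 0.12 (adjusted p = 0.00376), Col6a2 at -0.62 ± 0.13 (adjusted p = 0.00387) and the collagen-binding protein Sparc at -0.43 ± 0.10 (adjusted p = 0.0107). The last of the 8, Col1a2 and Col5a2, were near the threshold (-0.77 ± 0.23 and -0.38 ± 0.11, with adjusted p-values up to 0.0811 and 0.0715 with single libraries left out). The gene that rose was Eln, which encodes elastin (0.57 ± 0.14, adjusted p = 0.018). Outside the list, the matrix enzyme Pxdn (-0.58 ± 0.09, adjusted p = 0.000306) and the matrix protein Papln (-1.26 ± 0.17, adjusted p = 2.98e-05) also fell. The count of 8 was 6 to 10 with single libraries left out, 2 with all groups fitted together and 12 with quality weights, the replicate block or the GC slope as a covariate. Over all genes 727, 395 and 1007 fell with quality weights, the replicate block and the GC slope, in that order. The calls lost in the fit of all groups were Col1a1 (0.169), Col3a1 (0.0869), Col6a1 (0.0629), Sparc (0.0912), Col1a2 (0.214) and Col5a2 (0.176), with the adjusted p in parentheses. With high-slope libraries left out Col1a2 (0.065), Col5a2 (0.0954) and Eln (0.116) lost theirs, and Eln with quality weights too (0.056). Markers of fibroadipogenic progenitors, the cells that make most of this matrix, took 0.0895 to 0.176% of expression with cisplatin (median 0.120%) and 0.0976 to 0.204% with PBS (median 0.147%), and 2 of 12 fell, Col1a1 and Col3a1, while Ly6a rose (0.62 ± 0.16, adjusted p = 0.023, and 0.0559 with high-slope libraries left out). In the fit of all groups 0 of the 12 fell. Col1a1 and Col3a1 stand in both the marker and the matrix list, so the marker sum is not a separate measure of these cells. The part of the progenitors in the matrix counts was not tested.

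Clock genes moved in both directions. Of 21 measured, 2 rose (9.52%) and 6 fell (28.6%), with a median of -0.21. Clock transcripts vary over the day, and the time of day of collection is not given in the sources used here. Bmal1, the positive factor of the clock, ran from 2.15 to 4.99 (median 3.18) with cisplatin and from 1.26 to 3.65 (median 2.30) with PBS and rose by 0.89 ± 0.20 (adjusted p = 0.00539). Dbp, an output factor that Bmal1 and Clock induce through E-boxes, ran from 3.94 to 6.43 (median 5.49) against 5.49 to 7.39 (median 6.52), overlapped in part, and lay at -0.99 ± 0.18 (adjusted p = 0.000941). The clock repressors Ciart (-1.07 ± 0.29, adjusted p = 0.0264), Bhlhe41 (-0.50 ± 0.12, adjusted p = 0.0082), Per3 (-0.42 ± 0.09, adjusted p = 0.00504) and Per2 (-0.34 ± 0.10, adjusted p = 0.0377) and the output factor Tef (-0.21 ± 0.06, adjusted p = 0.0283) were lower too. Per2 was near the threshold (up to 0.0685 with single libraries left out), and Tef lost its call without 2 single libraries (adjusted p up to 0.0512), with quantile normalization (0.0587), quality weights (0.06), the replicate block (0.0667), all groups together (0.0693) and high-slope libraries left out (0.102). Bhlhe41 (0.0707) and Per2 (0.0826) were not called with all groups together, Per2 (0.0738) with quality weights, and Per2 (0.122) and Ciart (0.0682) without the libraries of high slope. The count of 6 was 4 to 6 with single libraries left out, and 3 when all groups were fitted together or when the libraries of GC slope above 0.1 were left out.

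E-box letters, CACGTG, were in 3 of the 5 fallen clock genes with a promoter (Bhlhe41, Ciart and Tef), in 2 of 11 not called and in 7.15% of all promoters (8.09% of all genes). Ciart has 3 matches, as many as 29 (0.0883%) of 32851 promoters reach. Its window is chr3:95882179-95882478 on the minus strand of GRCm38.p6, from RefSeq, shown 5′ to 3′ along the gene with the E-boxes in capitals.
Ciart: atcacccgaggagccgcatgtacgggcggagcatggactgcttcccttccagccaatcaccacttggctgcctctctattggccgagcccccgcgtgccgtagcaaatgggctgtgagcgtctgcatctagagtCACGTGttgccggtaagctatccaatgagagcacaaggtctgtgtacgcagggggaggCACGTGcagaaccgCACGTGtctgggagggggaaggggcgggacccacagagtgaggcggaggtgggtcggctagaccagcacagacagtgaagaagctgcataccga

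Falls also included cochaperones of the heat shock response and an immediate early gene. Of 28 measured cytosolic heat shock proteins 0 rose and 3 fell (10.7%). Dnajb1, a cochaperone of Hsp70, ran from 1.84 to 3.33 (median 2.73) with cisplatin and from 3.09 to 5.80 (median 3.91) with PBS, did not overlap within either sex, and lay at -1.45 ± 0.23 (adjusted p = 0.00024). The related cochaperone Dnaja1 fell (-0.72 ± 0.15, adjusted p = 0.00278), and so did the inducible Hsp70 gene Hspa1b (-1.84 ± 0.51, adjusted p = 0.0297), whose call was lost without any one of male PBS 1, 2 and 4 and male cisplatin 3 and 7 (adjusted p up to 0.053), with all groups together (0.0671), with quality weights (0.0991) and with high-slope libraries left out (0.109). With the GC slope as a covariate 6 of the 28 fell, as did 1007 of all 13856 genes. Hspa1b has a near-identical copy. The nuclear receptor Nr4a2, an immediate early gene, ran from -0.57 to 1.21 (median 0.34) against 0.37 to 3.75 (median 1.37) and lay at -1.47 ± 0.25 (adjusted p = 0.000441). The deubiquitinase Otud1 fell (-1.23 ± 0.28, adjusted p = 0.00871), as did Coq10b, which acts in coenzyme Q function (-1.42 ± 0.21, adjusted p = 7.68e-05).

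Genes of contraction and energy supply gave few calls. Of 21 fast fibre genes 0 rose and 2 fell, the calcium store protein Casq1 (-0.34 ± 0.09, adjusted p = 0.028) and the light chain Myl1 (-0.33 ± 0.10, adjusted p = 0.0473). Both calls were lost without female cisplatin replicate 4 (0 of 21), and Myl1 had an adjusted p of up to 0.089 with single libraries left out. With all groups together the adjusted p was 0.423 for Casq1 and 0.238 for Myl1, with high-slope libraries left out 0.109 and 0.179, with the replicate block 0.0599 and 0.0937, and for Myl1 0.069 with quality weights. Of 16 slow fibre genes limma called 0 (median 0.19, with 0 at an unadjusted p under 0.05). Of 29 sarcomere, Z-disc and M-band genes 1 fell, Lmod3, which nucleates thin filaments (-0.47 ± 0.08, adjusted p = 0.000592), and Ky, a Z-disc protein outside the list, fell as well (-1.001 ± 0.13, adjusted p = 2.86e-05). Of 33 calcium release and membrane excitability genes 1 rose, the potassium channel Kcnj12 (0.41 ± 0.11, adjusted p = 0.0225), and 3 fell, Casq1, Kcna7 and Scn4b (0 without male PBS replicate 2, and 0 with all groups together, where the call of Kcnj12 was lost too, adjusted p = 0.0639). Kcna7 and Scn4b were near the threshold, with adjusted p-values up to 0.0885 and 0.0605 when single libraries were left out. With all groups together these were 0.187 and 0.118, and with high-slope libraries left out Scn4b had an adjusted p of 0.162. Of 23 neuromuscular junction and denervation genes 2 rose, among them the deacetylase Hdac4 (0.51 ± 0.13, adjusted p = 0.0184), and 2 fell, among them Hdac9 (-0.96 ± 0.21, adjusted p = 0.00574). The others, the acetylcholine receptor subunit Chrna1 (0.34 ± 0.10, adjusted p = 0.0468) and the agrin receptor Lrp4 (-0.30 ± 0.09, adjusted p = 0.0427), were near the threshold (up to 0.0829 and 0.0749 with single libraries left out). With high-slope libraries left out their adjusted p-values were 0.195 and 0.0924, with all groups together 0.0906 and 0.0942, for Chrna1 with quality weights 0.247, and for Lrp4 with quantile normalization and the replicate block 0.055 and 0.087. Hdac4 was not called with all groups together (adjusted p = 0.0596). Myog, which denervation raises, was not called (0.33 ± 0.36, adjusted p = 0.74).

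In metabolism, limma called 0 of 79 nuclear oxidative phosphorylation genes, although 76 of the 79 lay below 0 (median -0.14) and 9 had an unadjusted p under 0.05. It called 0 of 24 tricarboxylic acid cycle genes (median -0.13, 4 at an unadjusted p under 0.05). The same 79 genes had a median of 0.06 against C26 saline, with 0 calls. The 13 mitochondrially encoded genes had 0 calls, and 0 had an unadjusted p under 0.05. Ppargc1a (ENSMUSG00000029167), the coactivator PGC-1 alpha that promotes mitochondrial biogenesis, ran from 4.56 to 6.62 (median 5.57) with cisplatin and from 3.81 to 6.60 (median 4.62) with PBS and rose by 0.91 ± 0.20 (adjusted p = 0.0055), with overlap. Its call was lost with all groups fitted together (adjusted p = 0.193). Of 35 fatty acid genes 2 rose, hormone-sensitive lipase Lipe (0.51 ± 0.14, adjusted p = 0.0302) and the droplet protein Plin4 (0.66 ± 0.19, adjusted p = 0.036), and 0 did without female PBS replicate 3. Both were near the threshold, and each lost its call without any one of several libraries (adjusted p up to 0.0543 for Lipe and 0.0633 for Plin4). Plin4 also lost its call with high-slope libraries left out (adjusted p = 0.0533). Insulin receptor substrate Irs1 (-0.84 ± 0.18, adjusted p = 0.0037) and the binding protein Igfbp6 (-0.45 ± 0.13, adjusted p = 0.0315) were the 2 of 33 IGF, insulin and mTOR genes that fell, the latter near the threshold (up to 0.0596 with single libraries left out and 0.123 with all groups together). The inhibitory Smad6 fell (-0.78 ± 0.15, adjusted p = 0.00213) and the ligand Bmp4 rose (0.51 ± 0.10, adjusted p = 0.00241), while Mstn, which encodes myostatin, lay at -0.24 ± 0.24 (adjusted p = 0.708). Ribosomal proteins lay above 0 in 65 of 79 genes (median 0.09), and 1 passed, Rpl4 (0.18 ± 0.05, adjusted p = 0.0314). Rpl4 was not called without any one of 6 libraries (adjusted p up to 0.0559), with quantile normalization (0.245), the replicate block (0.0663) or all groups together (0.0966). The count was 0 in those 3 settings, 5 with quality weights or with high-slope libraries left out, and 13 and 10 with the GC slope and the mitochondrial share as a covariate. Over all genes 855 and 806 rose with those covariates. Of 41 interferon response genes limma called 0, with 5 at an unadjusted p under 0.05.

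**Figure D4:**
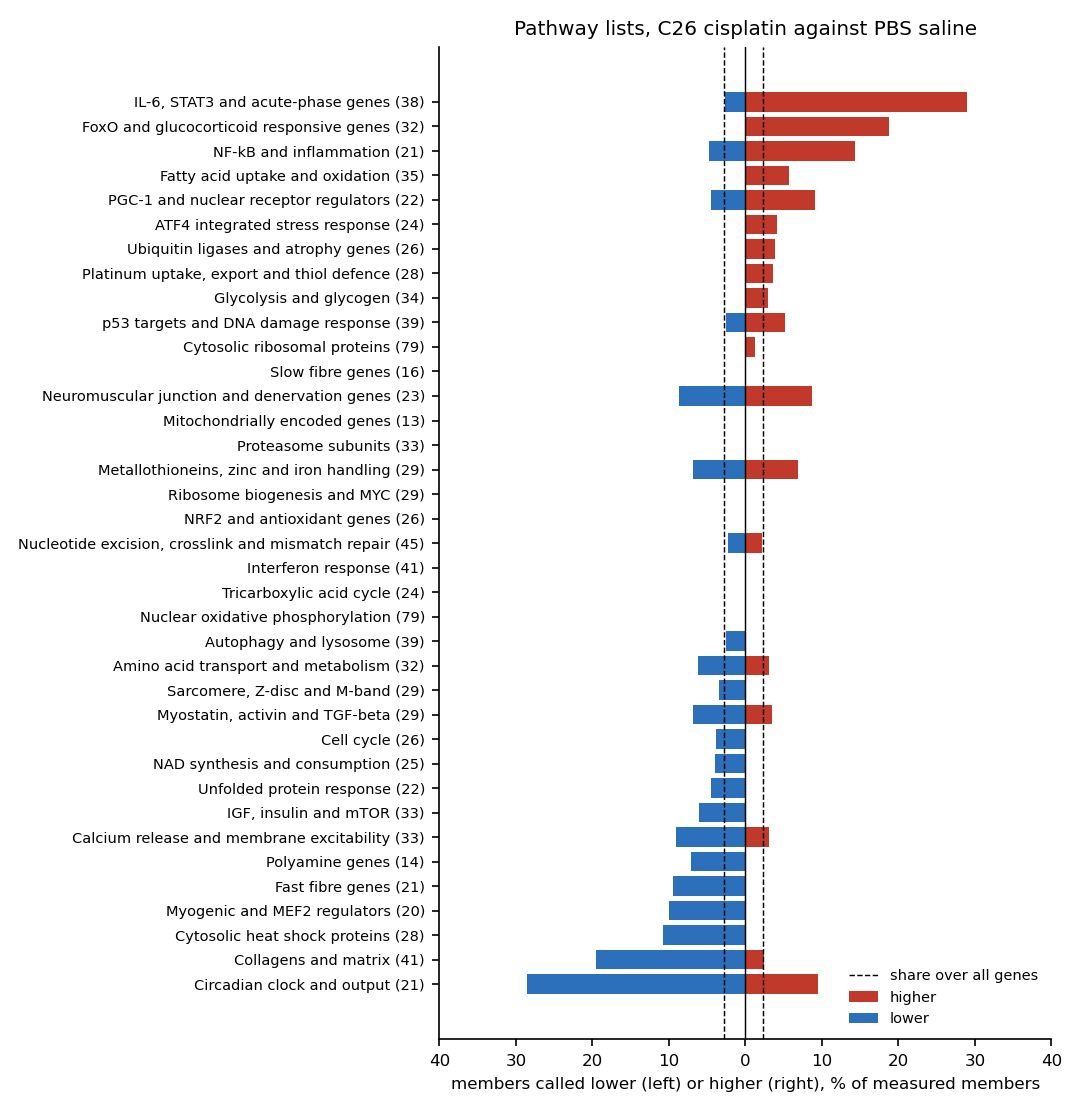
Percent of the measured genes of each of 37 pathway lists that rose (red) or fell (blue) with cisplatin against PBS. The dashed lines are the shares of all 13856 genes, 2.27% and 2.81%, and acute-phase genes (28.9% rose) and clock genes (28.6% fell) have the longest bars.

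The effect in each sex was then taken from a fit of 4 groups (sex by treatment), with a spread per gene shared by the groups. In females (6 against 7 libraries) 32 genes rose (0.231%) and 59 fell (0.426%), 91 in all (0.657%). In males (8 against 8) 156 rose (1.13%) and 116 fell (0.837%), 272 in all (1.96%). In both sexes 15 genes rose, which is 46.9% of the female and 9.62% of the male rises, and 22 fell, 37.3% of the female and 19.0% of the male falls. The sexes share no library, but the shared spread means that their tests are not fully independent. Among the risers in both were Serpina3n, Osmr, Fkbp5, Zbtb16, Ackr1, Xdh (xanthine dehydrogenase of purine breakdown) and Entpd1 (CD39, which degrades extracellular ATP). Among those that fell in both were Bcl6b, Crhr2, Foxo6, Col15a1, Ky, the type I BMP receptor Acvr1 and the potassium channel Kcnh2. Across the 13856 genes, which are not independent replicates, the female and male differences had a Pearson r of 0.256 and a Spearman rho of 0.177. The female count was 42, 37, 60, 50 and 216 without female PBS replicate 5, female cisplatin replicates 3, 4 and 6 and male cisplatin replicate 4 in turn. The male count was 157, 165, 145, 560 and 171 without male PBS replicates 1, 5 and 6 and male cisplatin replicates 2 and 7 in turn.

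Fbxo32, Cdkn1a, Mt1, Mt2 and Lcn2 rose in males and did not pass in females, and the test of the difference called none of them. The high-slope libraries were 2 of 8 male and 0 of 6 female cisplatin libraries, and 2 of 8 male and 2 of 7 female PBS libraries. Without them the male count went from 272 to 141, with 115 shared. Calls of single genes within a sex were not refitted in that or any other setting. Fbxo32 ran from 7.79 to 9.92 (median 9.08) in 8 male cisplatin libraries and from 7.49 to 8.41 (median 8.14) in 8 male PBS libraries, and rose by 0.94 ± 0.24 (adjusted p = 0.0359 by limma). In females it ran from 6.69 to 8.34 (median 7.24) in 6 cisplatin and from 7.15 to 8.02 (median 7.58) in 7 PBS libraries, a difference of -0.24 ± 0.27 (adjusted p = 0.772 by limma). The male minus female difference was 1.19 ± 0.36 (unadjusted p = 0.00274, adjusted p = 0.679 by limma). Trim63 lay at 1.15 ± 0.34 in males (adjusted p = 0.0704) and at -0.50 ± 0.37 in females (adjusted p = 0.66). Cdkn1a rose in males by 1.89 ± 0.35 (adjusted p = 0.00335) and lay at 0.06 ± 0.38 in females. Mt2 rose in males by 2.30 ± 0.46 (adjusted p = 0.00637) against 0.36 ± 0.51 in females, Mt1 by 1.48 ± 0.34 (adjusted p = 0.0173) against -0.05 ± 0.38, and Lcn2 by 2.94 ± 0.45 (adjusted p = 0.000666) against 0.84 ± 0.50. With cisplatin Mt2 ran from 2.3 to 6.2 in males and 2.6 to 5.4 in females, with PBS from 1.3 to 3.6 and 2.3 to 5.0. Lcn2 ran from 1.4 to 4.1 and -0.2 to 0.9 with cisplatin, and from -1.9 to 2.3 and -1.1 to 0.8 with PBS. A larger difference in males can thus lie in the PBS or the cisplatin level, and this was not tested. For Lcn2 the male minus female difference was 2.10 ± 0.67 (adjusted p = 0.738). Nr4a2 leaned the other way, at -2.31 ± 0.32 in females and -0.80 ± 0.28 in males (adjusted p of the difference = 0.642). With limma the interaction of sex and treatment called 0 of 13856 genes, while 851 had an unadjusted p under 0.05, and 9 were called with quality weights. The smallest p-values of the interaction belonged to the methyltransferase Mettl21c, the semaphorin Sema4c and the stress-induced Sesn1, each at an adjusted p of 0.306.

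**Figure D5:**
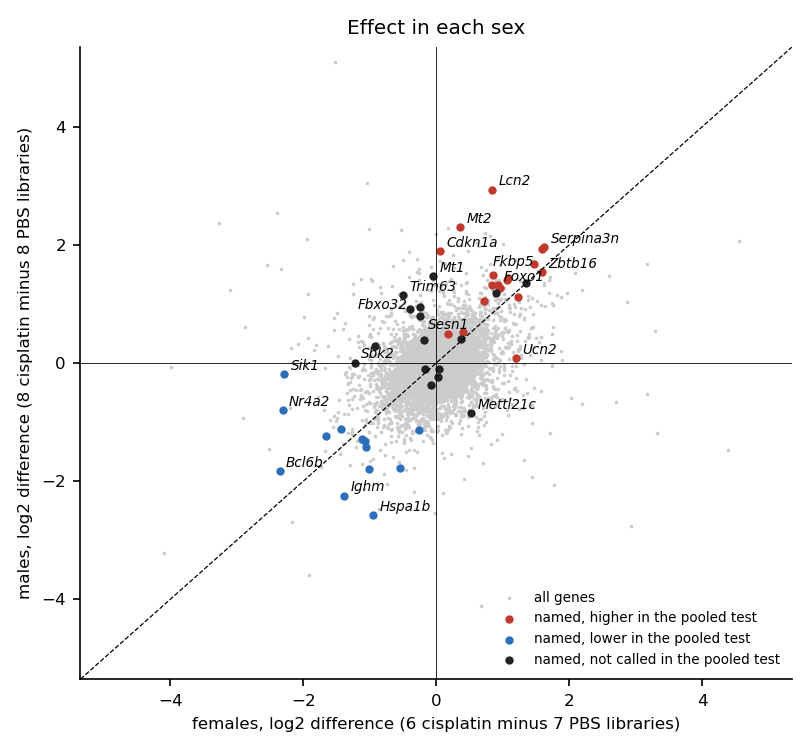
Log2 difference between cisplatin and PBS muscle in females (x axis, 6 against 7 libraries) and males (y axis, 8 against 8 libraries), 1 point per gene, with the line of equal effects dashed. Serpina3n, Fkbp5 and Zbtb16 lie near the line, and Lcn2, Mt2, Cdkn1a, Fbxo32 and Trim63 lie above it.

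Against untreated tumour muscle, 897 genes (6.47%) were higher and 1245 (8.99%) lower with cisplatin (14 against 15 libraries, 2142 genes in all, 15.5%). This count stands beside the 705 against PBS with no test between them, since both use the same cisplatin libraries. The named genes that were highest over C26 saline were Ighm, the myosin-binding protein Mybph (2.27 ± 0.48, adjusted p = 0.00178), the nicotinamide riboside kinase Nmrk2 (2.25 ± 0.32, adjusted p = 2.74e-05), the transferrin receptor Tfrc (2.22 ± 0.37, adjusted p = 0.00017) and the muscle phosphatase Dusp29 (2.12 ± 0.36, adjusted p = 0.000239). Against PBS, Mybph lay at 0.38 ± 0.26 (adjusted p = 0.522), Tfrc at -0.39 ± 0.34 (adjusted p = 0.65) and Dusp29 at -0.41 ± 0.20 (adjusted p = 0.29), and none of them passed. Nmrk2 ran from 4.91 to 7.04 (median 6.35) with cisplatin, from 5.63 to 7.88 (median 7.12) with PBS and from 1.94 to 5.46 (median 4.32) in C26 saline. It was lower than PBS at the threshold, at -0.74 ± 0.22 (adjusted p = 0.0493), with adjusted p-values up to 0.0931 when single libraries were left out. Its call was also lost with all groups together (adjusted p = 0.332), with quality weights (adjusted p = 0.203) and with high-slope libraries left out (adjusted p = 0.15).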

How the data were processed

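Gastrocnemius RNA was sequenced in paired-end reads, per the labels' protocols. A table of log2 values for each gene and library was deposited. The submitters' processing notes list FastQC, MultiQC, fastp, Salmon, edgeR and limma with no version, and mm39 (GRCm39) as the build. Judged by the values, the authors added 0.5 to estimated counts, scaled them by library and took log2. Of these recovered counts, 85.0 to 90.7% per library lay within 0.02 of a whole number, and as estimates they were put to no count test. Counts per library limit the precision of low genes.

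Libraries were grouped by title. 1 female library whose title names saline and whose treatment label names 5-fluorouracil was left out, and female PBS replicate 8 was not analysed here. All 13856 genes were fitted with limma 3.58.1 in R 4.3.3 (lmFit, eBayes with a trend, two-sided tests), with sex and treatment as terms, or with 4 groups for the effects in each sex and their interaction. The script was tested on simulated data.

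The members and the 54 gene lists were chosen with earlier results of these data known. Named genes were, at a mean log2 value of at least 1, the 12 largest rises and 12 largest falls, up to 4 called members of each list and the 5 largest differences each way from C26 saline. To these came, at any mean, 22 fixed genes and the 5 smallest p-values of the interaction, 108 in all. A further 43 called genes were added after their values were seen, and some members of the lists are not reported here by name. Symbols for 288 genes came from GENCODE vM21, which also gave GC content. Promoters are RefSeq windows on GRCm38.p6, matched by symbol, and no coordinates of the files' build are given. Alternatives were quantile normalization, only genes whose mean log2 value reached 1, 1 added before log2, all assigned libraries in 1 fit, quality weights (arrayWeights), a replicate block, the GC slope or mitochondrial share as a covariate, leaving out libraries of GC slope above 0.1, and leaving out each library.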

Additional observations from a re-analysis of the deposited data

Results flagged for a closer look

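In each sex and treatment group with 4 to 10 libraries, the 22 fixed genes and 3 library measures were searched for a library whose gap to its nearest neighbour was large against the range of the group (Dixon's criterion). Of 100 such groups of values 8 stood out, and chance alone gives about 1 in 20.

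Male cisplatin replicate 4, the library with the highest GC slope and the lowest mitochondrial share, held 2 of them. Myog, the myogenic factor that denervation raises, was at 8.235 there against 2.46 to 4.35 in the other 7 male cisplatin libraries, and Gdf15, a stress cytokine, was at 2.35 against -4.14 to -1.36.

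In the female cisplatin group, Eda2r was at 3.787 in replicate 4 against 2.35 to 2.88 in the others. Pdk4 was at 8.55 in replicate 2 against 10.2 to 10.8. Slc31a1 was at 4.398 in replicate 3 against 4.11 to 4.20.

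In PBS muscle, Foxo1 was at 6.39 in female replicate 4 against 4.21 to 4.96 in the others, which lies above the cisplatin median given in the report. Cdkn1a was at 4.432 in female replicate 1 against 5.34 to 5.97. Socs3 was at 3.603 in male replicate 7 against 0.89 to 1.74.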

How the results depend on the processing

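None of the 132 called genes named in the text or added reversed its direction under any alternative. For named genes that were not called, a change of sign was looked for only where the alternative called the gene. Of these, Fbxo32, Trim63 and Mt1 lay below 0 in females and above 0 with the sexes pooled. Of the 132 called genes, 40 lost the call with all assigned libraries in 1 fit (adjusted p up to 0.423), 24 without the libraries of GC slope above 0.1 (up to 0.195), 12 with quality weights, 10 with the replicate block, 5 with quantile normalization and 2 with 1 added before log2. The 705 pooled calls became 438 when all assigned libraries were fitted together (411 of them shared), 1242 with quality weights (651 shared), 1862 with the GC slope and 1742 with the mitochondrial share as a covariate (705 shared in each), and kept within 1.5 times otherwise, with 466 shared of 654 without the libraries of GC slope above 0.1. The female count of 91 became 137 with quantile normalization, 29 with all libraries, 837 with quality weights, 319 with the GC slope and 268 with the mitochondrial share, and ran from 37 to 216 with single libraries left out. The male count of 272 became 125 with all libraries, 824 with the GC slope, 773 with the mitochondrial share and 141 without the libraries of high slope, and ran from 145 to 560. The interaction had 0 calls, and 9 with quality weights. Against C26 saline 2142 became 3932 with quality weights, 3858 and 3549 with the GC slope or mitochondrial share as a covariate and 3540 without the libraries of high slope. The causes were not tested.

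The replicate block gave 699 pooled calls (574 shared). Over 14 pairs of libraries with 1 replicate number the correlations of deviations ran from -0.19 to 0.61, 4 of them above 0.1, and 2 of 14 libraries correlated best with their own number, so the numbers were not taken as pairs. Of the 132 called genes, 106 were called without every single library in turn, and 26 lost the call without 2 to 23 of them, with adjusted p-values up to 0.0931. Low estimated counts limit Prnd, Mmp8 and Gdf15, and Kit, Chek2 and Fancc lay below a mean log2 value of 1. With only genes that reached that mean, 0 members of the mast cell, p53 and repair lists fell. The NF-kB and inflammation list then had 2 rises.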

Other observations

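Several genes outside the lists rose. Arhgap26 ran from 2.92 to 6.17 (median 4.58) with cisplatin and from 2.16 to 3.71 (median 2.99) with PBS, and rose by 1.59 ± 0.24 (adjusted p = 0.00015). Its C26 saline median was 5.21. The scaffold protein Cnksr3 rose by 1.25 ± 0.23 (adjusted p = 0.00118), Prima1, which anchors acetylcholinesterase in membranes, by 1.21 ± 0.26 (adjusted p = 0.00484), and Hif3a, a subunit of the hypoxia-inducible factors, by 1.17 ± 0.27 (adjusted p = 0.0082). Abr rose by 0.63 ± 0.11 (adjusted p = 0.000495) and Xdh by 0.65 ± 0.09 (adjusted p = 4.93e-05). Each of these was tested with limma against PBS, and against C26 saline Arhgap26 differed by -0.61 ± 0.32 (adjusted p = 0.196), Cnksr3 by -0.60 ± 0.29 (adjusted p = 0.163), Prima1 by 0.05 ± 0.29 (adjusted p = 0.938), Hif3a by -0.34 ± 0.27 (adjusted p = 0.431), Abr by 0.11 ± 0.15 (adjusted p = 0.682) and Xdh by -0.26 ± 0.09 (adjusted p = 0.0459).

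Further genes fell in both sexes. Tppp, which promotes tubulin polymerization, lay at -0.71 ± 0.10 (adjusted p = 3.41e-05), the protocadherin Dchs1 at -0.76 ± 0.13 (adjusted p = 0.000441), the phosphoinositide kinase subunit Pik3cd at -0.73 ± 0.11 (adjusted p = 7.4e-05) and the BMP receptor Acvr1 at -0.59 ± 0.10 (adjusted p = 0.000432). Asb18, an adaptor of ubiquitin ligases, lay at -0.64 ± 0.11 (adjusted p = 0.000606). These genes were picked because they passed in both sexes, so their agreement in sign is part of the choice, and they stand for no tested group.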
